A study of Mus musculus with 2 samples.

Results

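Cells of the mouse dentate gyrus that held transcripts of both Olig2 and Egfr were described: 368 of 11414 control cells and 216 of 9956 Setdb1_cKO cells, 584 of 21370 in all. A cell was a member when it held at least 1 unique molecular identifier (UMI, 1 counted RNA molecule) of Olig2 and at least 1 of Egfr, and 0 of Pdgfra, Cspg4, Sox10 and Eomes. High Olig2 and Egfr and the absence of the other 4 genes are thus fixed by the definition, and nothing is read from them. The cells came from dentate gyrus dissociated at postnatal day 5 and profiled with the 10x Genomics 3' v3 assay. One library came from wild type mice (control) and 1 from mice with a conditional knockout of Setdb1 (Setdb1_cKO). The sources used here do not give the deleted exons, the Cre driver or the number of animals behind each library. With 1 library per genotype no test between genotypes was possible. Every interval below is a 95% interval that covers counting error only, not differences between animals.

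Glial intermediate progenitors are dividing cells that stand between radial glia and differentiating glia. Olig2 and its neighbour Olig1 encode basic helix-loop-helix factors of the oligodendrocyte lineage that also occur in dividing glial precursors. Egfr encodes the receptor for EGF family ligands, which signals through the ERK kinases to ETS factors such as Etv4 and Etv5 and to feedback inhibitors of the Sprouty family. Pdgfra, Cspg4 and Sox10 mark committed oligodendrocyte progenitors, and Eomes marks the intermediate progenitors of granule neurons. Setdb1 encodes a methyltransferase that places H3K9 trimethylation, a repressive mark that silences retroelements and many germline genes.

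The libraries differed in depth and sex. Members held 3341749 UMIs in control and 2298987 in Setdb1_cKO, with medians of 8305.5 and 9617 per cell, against 5963 and 7064.5 in all other cells. After filtering the libraries shared 42 barcodes, and members shared 0. Xist, the RNA that silences an X chromosome in female cells, had 0 and 2866 UMIs among members, and the Y-linked gene Ddx3y was seen in 39.1% and 0% of them. Genotype and sex of the tissue cannot be told apart. Called doublets were kept in the main values and made up 18 of 368 and 17 of 216 members (4.89% and 7.87%), against 5.20% and 5.83% of all cells. Erythroid and microglial transcripts were present: 1 Setdb1_cKO member held 233 of the 251 UMIs of Hbb-bs there, and the 9 microglial markers summed to 275 and 17 UMIs, with 0 and 5 of them at 0. Their part in the results was not tested.

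The definition cut through a gradient. In control, 94 members held exactly 1 UMI of each gene and 127 held at least 2 of each, and in Setdb1_cKO the numbers were 39 and 100. Olig1 stood at 426 CPM (UMIs of a gene per 1000000 UMIs of the set) in control members just inside the threshold, with 1 UMI of each gene, and at 834 CPM in those with at least 2. Just outside, it stood at 346 CPM in 328 control cells with Olig2 and no Egfr and at 239.7 CPM in 492 with Egfr and no Olig2. Aqp4, a water channel of astrocytes, stood at 892, 209, 858 and 983 CPM in the same sets. A further 65 control and 51 Setdb1_cKO cells held both genes together with an excluded one, most often Cspg4 (41 and 26 cells) or Pdgfra (23 and 25 cells).

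The members carried astroglial transcripts together with those of ERK signalling and low levels of neuronal ones. Because they were chosen from the same cells, all levels of members against other cells and gates are a description without a test. Olig1 (chromosome 16, 91269772 to 91271933 on mm10, as are all positions given) stood at 625 against 81.1 CPM in control and 425 against 30.6 CPM in Setdb1_cKO, 7.71 and 13.9 times the level of all other cells. Sall3, a zinc finger factor, stood at 123 against 19.6 CPM in control and 117 against 9.74 CPM in Setdb1_cKO, 6.26 and 11.97 times. Inka2, an inhibitor of the kinase Pak4, was 5.68 and 9.02 times and the ETS factor Etv4 5.06 and 9.18 times as high as in other cells. Tmem229a, Prr18, Fzd9, Dbx2, Adrb1, Metrn, Nab2, 3110082J24Rik, Tril, Xylt1 and Sox21 completed the 15 genes that ranked highest. Of 6178 genes with at least 50 UMIs among members in each library, 234 (3.79%) were at least 2-fold above the other cells in both and 190 (3.08%) at least 2-fold below. The markers that go with the name of these cells and that the definition did not use were all among the higher ones. They were seen in 60.3% and 57.9% (Sall3), 58.4% and 50.5% (Inka2) and 61.96% and 58.3% (Etv4) of control and Setdb1_cKO members. Cells just outside the definition held them too. In control, Sall3 stood at 78.2 CPM in cells with Olig2 and no Egfr and 91.9 CPM in those with Egfr and no Olig2. Etv4 stood at 86.7 and 78.1 CPM and Inka2 at 80.9 and 63.1 CPM in the same sets. In Setdb1_cKO, Sall3 stood at 59.9 and 44.6 CPM there. The markers were listed with earlier results of these data known, so their level is not independent evidence.

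Free RNA gives UMIs in cells that do not express a gene, so shares of cells were compared with neurons after each cell was thinned to 2000 UMIs. Sall3 was then seen in 78 of 367 control members (21.3%, 17.2% to 25.8%) and 51 of 216 Setdb1_cKO members (23.6%, 18.1% to 29.8%). Neurod6 neurons, with median depths of 6761 and 13193 UMIs before thinning, held it in 3 of 663 cells (0.452%) and 0 of 939. With 3 counts taken as the floor, 0 of 939 allows a share of up to 0.319%. Olig1 was seen in 59.7% and 49.1% of members and 0.754% and 0.426% of these neurons. Dcx, a gene of neuroblasts, was in 9.26% and 11.6% of members, below the 12.8% and 23% in endothelial cells (median depths 12252 and 7102 UMIs), and is read as background.

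**Figure D1:**
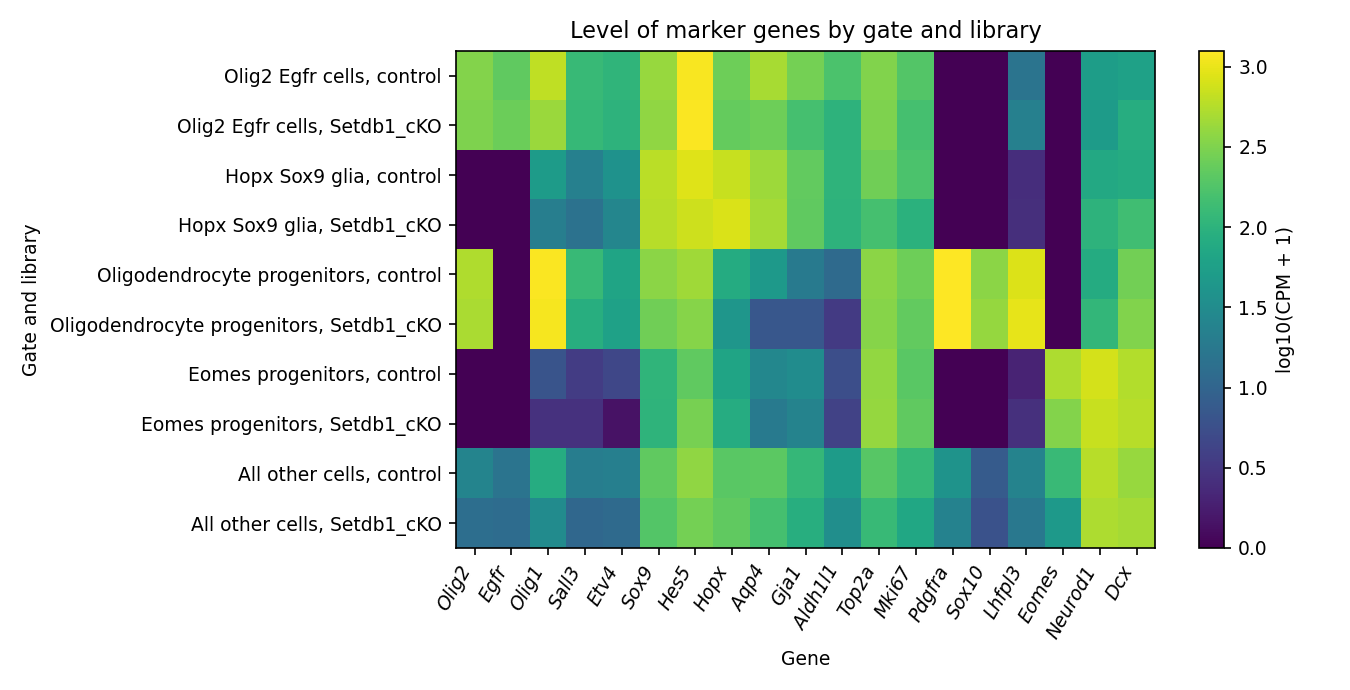
Level of marker genes as log10(CPM + 1), genes across, with each gate in each library as a row. The Olig2 Egfr cells combine Olig1, Sall3 and Etv4 with astroglial genes, and are at 0 for Pdgfra, Sox10 and Eomes by definition.

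Signalling lists were described against all other cells. Of 18 measured ERK targets and feedback genes, 12 were at least 2-fold above the other cells in both libraries and 1 below, Rasgef1b (11.4 and 11.7 CPM, 0.275 and 0.308 times the other cells). Among the higher ones were the feedback inhibitors Spry2 (89.8 and 52.2 CPM, 4.58 and 4.36 times the other cells) and Spry4 (24.5 and 18.7 CPM, 3.696 and 4.43 times the other cells), the ETS factor Etv5 (78.1 and 67.9 CPM, 4.02 and 5.38 times the other cells) and the immediate early gene Egr1 (642 and 815 CPM, 3.46 and 5.37 times the other cells). Of 19 measured Notch pathway genes 5 were above, with the effector Hes5 at 1177 and 1220 CPM, 3.06 and 4.34 times the other cells and Hes1 at 157 and 202 CPM, 3.56 and 7.02 times the other cells. Of 12 measured BMP pathway and Id genes 5 were above, with Id1 at 480.3 and 669 CPM, 2.12 and 3.21 times the other cells and Id3 at 1627 and 1639 CPM, 2.31 and 2.59 times the other cells. Of 32 measured glial and progenitor transcription factors 14 were above and 3 below, while 10 of 11 neuroblast genes were at least 2-fold below. Over all 9187 genes measured between libraries, 322 were above and 423 below by the same rule. These levels were not particular to the members. The ERK list summed to 2586 and 2654 CPM in members and 2304 and 2322.5 CPM in oligodendrocyte progenitors, where Spry4 stood at 108 and 111 CPM. In Hopx Sox9 glia the ERK list summed to 1364 and 1180 CPM. The BMP and Id list summed to 3189 and 3338 CPM in members and 3653 and 4289 CPM in Hopx Sox9 glia.

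Oligodendrocyte progenitors (224 and 141 cells with Pdgfra and Sox10) also held the leading genes of the members, so these are not particular to the members. Olig1 stood at 1190 and 1126 CPM there in control and Setdb1_cKO, and Inka2 at 181 and 93.4 CPM. Sall3 stood at 123 and 86.2 CPM and Etv4 at 63.95 and 58.7 CPM. The progenitors were low in astroglial genes that the members held. Gja1, a gap junction protein of astrocytes, stood at 285 against 17.4 CPM in control and 152 against 5.99 CPM in Setdb1_cKO. Aldh1l1, a folate enzyme of astrocytes, stood at 166 against 10.8 CPM and Aqp4 at 498 against 46.5 CPM in control. Sox1, Btg2, Mfge8, Id1 and Bcl2l12 were the other genes highest over these progenitors. In the other direction, Gpr17, a receptor of committed oligodendrocyte precursors, had 0 UMIs in members of either library and stood at 217 and 309 CPM in the progenitors. Lhfpl3 stood at 14.4 against 865 CPM and Cntn1, an adhesion protein, at 10.2 against 839 CPM in control, and Pnlip, Sema3d, Irx1, Vxn and Prkcq were low as well. Of 7679 genes, 360 (4.69%) were at least 2-fold higher in members in both libraries and 598 (7.79%) lower.

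Eomes progenitors (2164 and 1055 cells) were low in the leading genes of the members. Olig1 stood at 625 against 5.42 CPM and Sall3 at 123 against 2.59 CPM in control, members first, and Serpine2, Tmem229a, Ednrb, Etv4, Aldh1l1 and Bcan were also higher in members. Tac2, a neuropeptide gene, stood at 11.4 against 547 CPM, Mfap4 at 13.2 against 445 CPM and Igfbpl1 at 118 against 2063 CPM, and the neuronal factors Neurod4, Scrt2 and Nhlh1 were lower with Shisal2b and Srrm4. Of 10859 genes, 897 (8.26%) were at least 2-fold higher in members and 808 (7.44%) lower.

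Hopx Sox9 glia (2048 and 1752 cells with neither Olig2 nor Egfr) shared more with the members, with 109 of 11924 genes (0.914%) at least 2-fold higher in members and 669 (5.61%) lower. Beside Olig1, Inka2, Sall3, Prr18 and Nab2, the higher genes were led by Kcnc1, a potassium channel (70.9 against 6.55 CPM in control), Pdzrn4 (47.6 against 6.82 CPM) and Neto1, a glutamate receptor partner (17.95 against 2.57 CPM). The lower genes were led by genes of vessels and blood: Cldn5, Rgs5, Ctla2a, Cd93, Flt1 and Hbb-bt, with Frzb and Gdf10. Cldn5 stood at 2.09 against 347 CPM in control and 0.435 against 102 CPM in Setdb1_cKO. The Hopx Sox9 gate thus also held endothelial RNA, and less of it in Setdb1_cKO.

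Members were divided into cells with and without Aqp4, a split chosen after its values were seen. Aqp4 had a UMI in 194 of 368 control members (52.7%) and 84 of 216 Setdb1_cKO members (38.9%). The sides were of like depth, with medians of 8659.5 without and 8203.5 UMIs with Aqp4 in control, and 9330.5 and 9932 in Setdb1_cKO. After thinning, Aqp4 was seen in 34.6% and 23.6% of members, against 2.87% and 1.704% of Neurod6 neurons.

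Cells without Aqp4 held more transcripts of division. Top2a, which untangles chromosomes in mitosis, stood at 506 against 149.6 CPM in control and 452 against 103 CPM in Setdb1_cKO, cells without Aqp4 first. Hmgb2, a chromatin protein of dividing cells, stood at 1699 against 546 CPM in control and 1873 against 609.6 CPM in Setdb1_cKO. Tesc, a calcium-binding protein, was 4.54 and 4.200 times as high in the cells without Aqp4.

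Cells with Aqp4 held more of the genes of maturing astrocytes. Gfap, the intermediate filament of astrocytes, stood at 446 against 29.9 CPM in control and 782 against 28.4 CPM in Setdb1_cKO, cells with Aqp4 first. Apoe, the lipid carrier of astrocytes, stood at 13464 against 2619 CPM in control and 10357 against 1645 CPM in Setdb1_cKO, and Clu, a secreted chaperone, at 528 against 60.5 CPM in control and 645 against 34.9 CPM in Setdb1_cKO. Gja1, Sparcl1, Agt, Fbxo2 and Myoc lay in the same direction in both libraries. Etv4 had intervals that included 1, with ratios of cells without to cells with Aqp4 of 0.894 (0.721 to 1.11) and 1.14 (0.867 to 1.52).

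**Figure D2:**
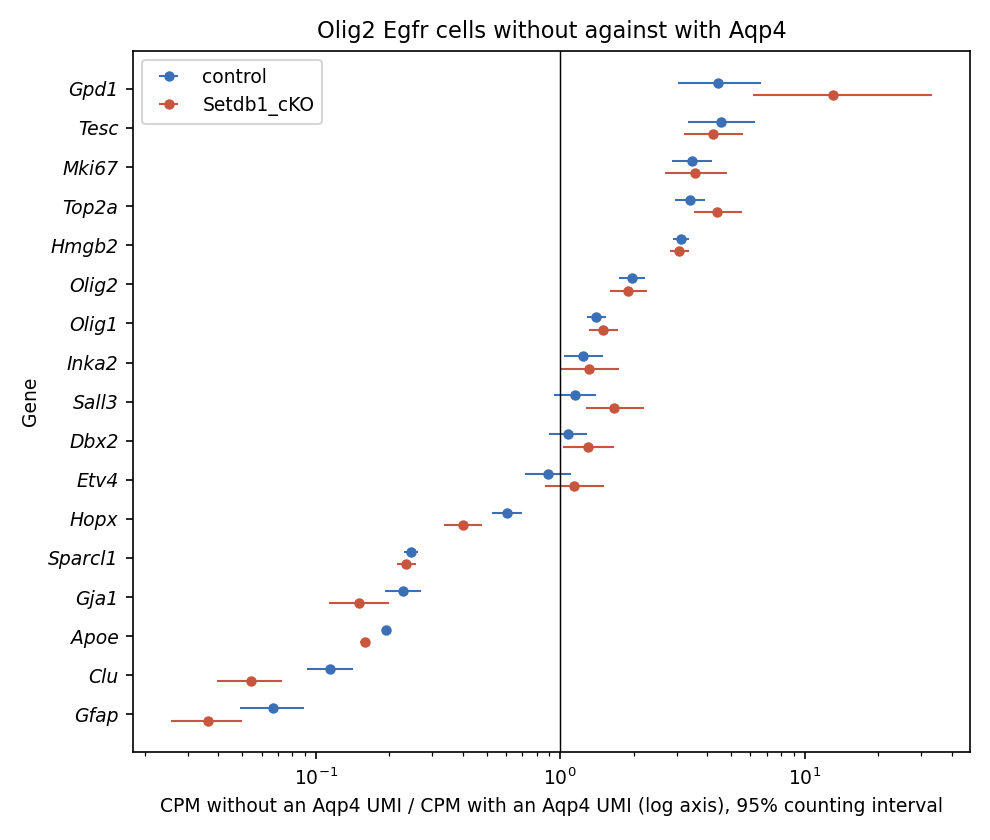
Ratio of CPM in Olig2 Egfr cells without an Aqp4 UMI to CPM in those with one, on a log axis, with 95% counting intervals, in control and Setdb1_cKO. Gfap, Clu and Apoe lie far below 1, Top2a and Mki67 lie above 1, and the intervals of Etv4 include 1.

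Dividing cells were read from a UMI of Top2a or of Mki67, a nuclear protein of cycling cells, after thinning. The share expected over all possible thinnings was 24.4% and 25.1% of 367 control and 216 Setdb1_cKO members, 1 control member being too shallow. One thinning, drawn as planned, gave 97 of 367 (26.4%, 21.99% to 31.3%) and 62 of 216 (28.7%, 22.8% to 35.2%). It lay above 5 other thinnings, which gave 22.9% to 23.7% and 23.1% to 26.4%. Without thinning the shares were 36.4% and 37.5%. The intervals of the libraries overlapped over most of their width.

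Other gates are set beside the members without a test of the difference. The expected shares in control and Setdb1_cKO were 17.9% and 11.1% in Hopx Sox9 glia, 31.3% and 23.2% in oligodendrocyte progenitors, 24.5% and 22.6% in Eomes progenitors and 13.9% and 8.401% in all other cells. Neurod6 neurons, the background, had 2.78% and 1.68%. Within members the dividing cells lay mostly on the side without Aqp4, with 36.6% and 36.1% of 173 and 132 cells, against 13.4% and 7.82% of 194 and 84 cells with Aqp4.

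**Figure D3:**
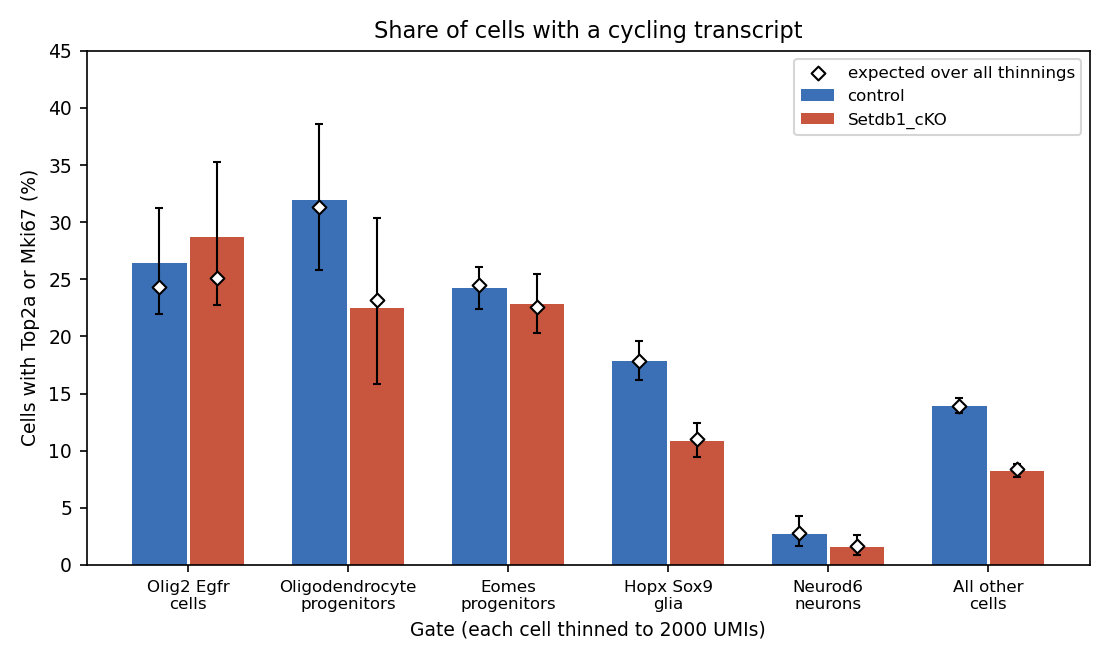
Share of cells (%) with a UMI of Top2a or Mki67 after thinning to 2000 UMIs, by gate, for control and Setdb1_cKO. Bars are 1 thinning with exact 95% binomial intervals and diamonds the share expected over all thinnings, which is 24.4% and 25.1% in the Olig2 Egfr cells.

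The Setdb1_cKO library held fewer members per cell. They made up 3.22% of control cells (2.91% to 3.56%) and 2.17% of Setdb1_cKO cells (1.89% to 2.48%), a ratio of 0.673 (0.566 to 0.798). When at least 2 UMIs of each gene were asked for, the ratio was 0.903. Fewer such cells and less Olig2 or Egfr RNA per cell cannot be told apart in a share defined by UMIs.

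Setdb1 (chromosome 3, 95323525 to 95357202, reverse strand) was checked first. It had 172 and 34 UMIs (51.5 and 14.8 CPM) in control and Setdb1_cKO members, a ratio of 0.287 (0.193 to 0.417), and was seen in 35.3% and 13.9% of them. The ratio was 0.419 (0.262 to 0.652) in members without Aqp4, on 78 and 28 UMIs, and 0.1201 (0.04299 to 0.271) in members with it, on 94 and 6 UMIs. The log2 ratio was -0.96 in members with a UMI of Top2a or Mki67 and -2.99 in those without. Hopx Sox9 glia had a ratio of 0.372 (0.322 to 0.428) and oligodendrocyte progenitors one of 1.08 (0.731 to 1.58), an interval that included 1. UMIs from outside the deleted exons cannot show whether a cell lost the gene, and where those exons lie is not known here.

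Of 9187 genes with at least 50 UMIs over both libraries, 129 (1.40%) were at least 2-fold higher in Setdb1_cKO members and 161 (1.75%) at least 2-fold lower, with a median log2 ratio of -0.01. The same counts were 28 (0.424%) and 46 (0.697%) of 6604 genes in oligodendrocyte progenitors, 233 (1.89%) and 327 (2.66%) of 12301 in Eomes progenitors, and 671 (5.00%) and 385 (2.87%) of 13431 in Hopx Sox9 glia. These gates differ in their number of cells and so in counting error, and Hopx Sox9 glia differed in endothelial RNA between libraries. In oligodendrocyte progenitors the Setdb1 level itself was not distinguishable between libraries at this depth.

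The highest genes were nearly silent in control, and several are known from the germline. The noncoding RNA Gm49795 (chromosome 17, 27353861 to 27354668) had 0 and 288 UMIs, in 98 Setdb1_cKO members, at least 139.5-fold higher when 3 counts over all control members are taken as the floor. Ccnb3, a cyclin of meiosis whose gene lies on the X chromosome, had 0 and 66 UMIs (at least 31.98-fold higher). Tuba3a, a tubulin of the testis, had 0 and 61 UMIs (at least 29.6-fold higher). The noncoding Gm11884 had 0 and 52 UMIs (at least 25.2-fold higher).

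Tcfl5 (chromosome 2, 180621956 to 180642708), a basic helix-loop-helix factor of spermatogenesis, had 15 and 315 UMIs, a ratio of 30.5 (18.2 to 55.2), and was seen in 4.08% and 69.9% of control and Setdb1_cKO members. Mnd1 (chromosome 3, 84087933 to 84155786), which acts in meiotic recombination, had 22 and 306 UMIs, a ratio of 20.2 (13.1 to 32.7), and was seen in 5.43% and 65.7%. After thinning, Tcfl5 was in 1.36% and 25% of members and 0.452% and 14.6% of Neurod6 neurons, and in 0 of 180 control endothelial cells, which allows a share of up to 1.67%, and 1 of 100 Setdb1_cKO ones. Mnd1 was in 1.36% and 21.3% of members, 1.51% and 37.1% of these neurons and 1.11% and 6% of endothelial cells, so its Setdb1_cKO share was lower in members than in neurons. The noncoding Gm7967 had 49 and 345 UMIs and a ratio of 10.2 (7.57 to 14.1). Gm48619 had 1 and 130 UMIs (ratio 189, 33.3 to 7520) and Rnf17, a germ granule protein, 1 and 69 UMIs (ratio 100.3, 17.4 to 4018).

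The same genes were higher in the other cells of the Setdb1_cKO library, where Tcfl5 had a ratio of 16.7 (15.1 to 18.6), Mnd1 of 22.8 (20.9 to 24.8) and Gm7967 of 31.6 (27.6 to 36.3). In oligodendrocyte progenitors, where the Setdb1 interval included 1, the ratio was 3.91 (1.58 to 11.02) for Tcfl5 and 21.2 (6.78 to 106) for Mnd1. After thinning, Mnd1 was in 0% of control and 7.25% of Setdb1_cKO oligodendrocyte progenitors, and Tcfl5 in 1.39% and 2.90%. The Setdb1_cKO shares of Mnd1 were 21.3% in members and 6% in endothelial cells. The part of free RNA in the ratios of these progenitors was not tested. On the sides of the Aqp4 split Mnd1 had 15.6 (9.05 to 29.04) without and 27.99 (13.8 to 66.3) with Aqp4. All 11 genes of a list of genes gained across cell classes were at least 2-fold higher in members, but that list was drawn from these libraries, so its direction is not independent evidence. It holds Atf7ip, which stabilises the Setdb1 protein, with 64.3 and 175 CPM and a ratio of 2.72 (2.297 to 3.22), and Crlf2, a cytokine receptor gene, with 32 and 88 UMIs and 3.997 (2.64 to 6.19). Of 43 germline genes listed 3 were measured and 2 were at least 2-fold higher: Stag3, a meiotic cohesin (5 and 52 UMIs, ratio 15.1, 6.08 to 48.5), and Zcwpw1, a histone reader of meiotic cells (32 and 122 UMIs, ratio 5.54, 3.73 to 8.46). In Setdb1_cKO, Stag3 UMIs lay mostly in dividing members, with 0 and 44 UMIs in those with a UMI of Top2a or Mki67 and 5 and 8 UMIs in the others. So did those of Tuba3a and Ccnb3, with 54 and 51 Setdb1_cKO UMIs in dividing members and 7 and 15 in the others. Tcfl5 and Mnd1 had 147 and 132 Setdb1_cKO UMIs in dividing members and 168 and 174 in the others.

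Promoters of the protein-coding genes among the highest are shown, since these genes differed most between libraries. RefSeq (GRCm38.p6) gave one for 4 of 5 such genes, from 250 bases before to 50 after the start, written 5′ to 3′ along the gene with every CG dinucleotide in capitals.
Tcfl5: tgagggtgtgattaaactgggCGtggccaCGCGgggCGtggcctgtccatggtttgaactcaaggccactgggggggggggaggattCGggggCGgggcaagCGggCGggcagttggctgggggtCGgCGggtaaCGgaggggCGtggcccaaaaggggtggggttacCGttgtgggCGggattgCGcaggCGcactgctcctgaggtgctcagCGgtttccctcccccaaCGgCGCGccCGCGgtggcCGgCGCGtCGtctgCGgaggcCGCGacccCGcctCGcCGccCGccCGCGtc
Mnd1: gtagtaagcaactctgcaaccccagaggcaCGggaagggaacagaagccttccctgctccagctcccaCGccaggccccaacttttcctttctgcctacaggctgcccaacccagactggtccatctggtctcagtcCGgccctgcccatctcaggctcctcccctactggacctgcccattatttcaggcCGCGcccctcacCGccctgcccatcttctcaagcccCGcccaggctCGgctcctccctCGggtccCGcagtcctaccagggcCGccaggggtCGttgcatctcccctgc
Ccnb3: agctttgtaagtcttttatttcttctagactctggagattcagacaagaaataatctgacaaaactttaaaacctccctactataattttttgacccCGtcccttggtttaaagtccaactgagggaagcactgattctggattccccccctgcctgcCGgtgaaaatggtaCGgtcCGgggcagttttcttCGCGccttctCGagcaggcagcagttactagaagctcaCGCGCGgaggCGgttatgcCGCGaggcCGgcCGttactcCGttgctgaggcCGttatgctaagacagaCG
Tuba3a: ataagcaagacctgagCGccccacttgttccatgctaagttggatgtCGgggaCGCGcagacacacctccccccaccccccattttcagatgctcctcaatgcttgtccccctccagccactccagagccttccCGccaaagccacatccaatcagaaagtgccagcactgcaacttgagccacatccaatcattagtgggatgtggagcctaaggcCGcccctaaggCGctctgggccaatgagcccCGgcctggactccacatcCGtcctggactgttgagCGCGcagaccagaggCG
Tcfl5 lay at chr2:180642642-180642941, Mnd1 at chr3:84155737-84156036, Ccnb3 at chrX:7041570-7041869 and Tuba3a at chr6:125286032-125286331, all on the reverse strand. They held 35, 12, 18 and 12 CG dinucleotides, against a median of 7 over 32851 promoters. Of all promoters, 93.8%, 62.1%, 71.9% and 62.1% held as many or fewer. The E2F-type motif GGCGGGA was found on either strand in Tcfl5 and Tuba3a and in 11.3% of all promoters. The E-box CACGTG was in 0 of the 4 and in 7.15% of all, and the motifs can share an end base. A match describes letters, not binding.

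**Figure D4:**
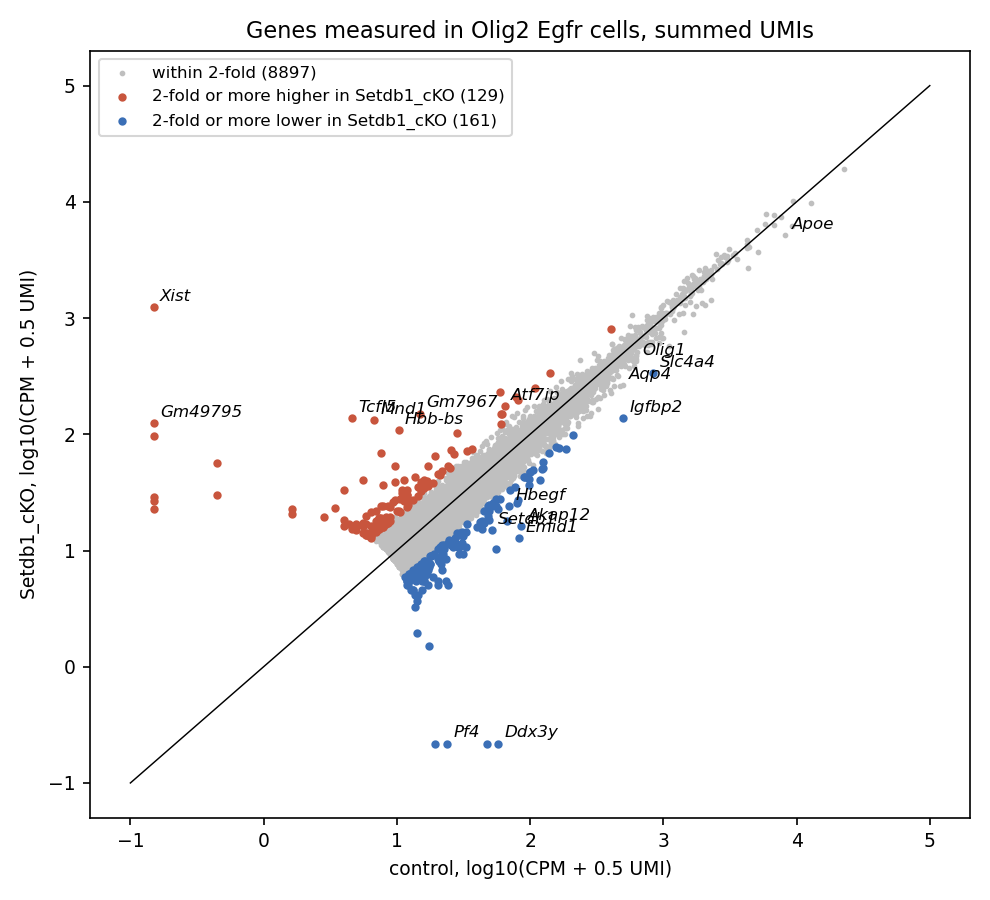
CPM of each of 9187 measured genes in Olig2 Egfr cells, control across and Setdb1_cKO up, on log10 scales with 0.5 UMI added. The 129 genes at least 2-fold higher in Setdb1_cKO include Gm49795, Tcfl5 and Mnd1, and the 161 at least 2-fold lower include Igfbp2, Emid1, Akap12 and Setdb1.

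Emid1, Igfbp2, Akap12, Scd1, Cpne8, Gsg1l, Prkg1, Tmem100 and Pf4 were among the lowest genes. Emid1 (chromosome 11, 5106265 to 5152257), a matrix protein, stood at 82.3 and 12.6 CPM in control and Setdb1_cKO members, a ratio of 0.153 (0.101 to 0.225), and was seen in 40.8% and 11.6%. Igfbp2 (chromosome 1, 72824503 to 72852474), which binds insulin-like growth factors, stood at 499 and 138 CPM, a ratio of 0.277 (0.245 to 0.312), and was seen in 69.6% and 42.6%. Thinned, Igfbp2 was in 46.3% and 18.5% of members and in 13.7% and 12.99% of Neurod6 neurons.

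Akap12, a kinase anchor, had a ratio of 0.187 (0.129 to 0.265), Scd1, a fatty acid desaturase, 0.267 (0.187 to 0.374), Cpne8 0.181 (0.112 to 0.2795), Gsg1l 0.1999 (0.0959 to 0.377), Prkg1 0.224 (0.111 to 0.413) and Tmem100 0.321 (0.238 to 0.427). In all other cells the ratio was 0.356 for Emid1, 0.671 for Igfbp2, 0.651 for Akap12 and 0.515 for Scd1. Pf4 ranked among the lowest (79 and 0 UMIs), but all its control UMIs lay in 1 cell.

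Among the EGF family 2 of 6 measured genes were at least 2-fold lower, both of them ligands of the receptor that defines the cells. Beside this count and those of the lists that follow, 1.40% of all 9187 measured genes were higher and 1.75% lower. Hbegf stood at 69.1 and 23.9 CPM, a ratio of 0.346 (0.253 to 0.466), and Tgfa had 47 and 4 UMIs, a ratio of 0.124 (0.0324 to 0.338). Hbegf was low on both sides of the Aqp4 split, at 0.314 (0.184 to 0.514) without and 0.418 (0.2795 to 0.6097) with Aqp4. Lrig1, which restrains Egfr, had 0.6803 (0.552 to 0.835).

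The 18 measured ERK targets did not move one way. None was 2-fold apart, with a list median of -0.18 and a summed ratio of 1.03 (0.993 to 1.06). Spry2 was lower (0.581, 0.467 to 0.721), Egr1 was higher (1.27, 1.19 to 1.35), and Etv4 (0.932, 0.785 to 1.104) and Etv5 (0.869, 0.708 to 1.06) had intervals that included 1. Of 6 measured FGF receptor and ligand genes 1 was at least 2-fold lower, Fgf1 (0.412, 0.234 to 0.695), and the receptor gene Fgfr3 had 0.608 (0.501 to 0.736).

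Of 12 measured astrocyte genes 1 was at least 2-fold lower in Setdb1_cKO members and 0 higher, with a median log2 ratio of -0.67 against -0.01 over all genes. The gene past 2-fold was Slc4a4, a bicarbonate transporter (843 and 334 CPM, ratio 0.397, 0.366 to 0.4300). Aqp4 stood at 498 and 263 CPM (0.528, 0.4802 to 0.5798), Gja1 at 285 and 152 CPM (0.532, 0.469 to 0.602) and Apoe at 8260 and 5145 CPM (0.623, 0.6096 to 0.637). Gfap stood at 247 and 331 CPM (1.34, 1.21 to 1.48), and its direction depended on the members taken. The log2 ratio of Gfap was 0.42 in all, -0.17 at 2 or more UMIs of Olig2 and of Egfr, and -1.15 in members with a UMI of Top2a or Mki67 (226 and 71 UMIs). Members with Aqp4 made up 52.7% in control and 38.9% in Setdb1_cKO. The summed log2 ratio of the astrocyte list was -0.69 in all members, -0.72 without Aqp4 and -0.38 with it. In members with Aqp4 the ratio was 0.684 for Aqp4, 0.769 for Apoe and 1.75 for Gfap. In those without it was 0.628 for Apoe and 0.947 (0.605 to 1.48) for Gfap.

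In Hopx Sox9 glia the ratio was 1.08 (1.05 to 1.12) for Aqp4 and 1.09 (1.09 to 1.104) for Apoe. The make-up of that gate differed between libraries, with 7 endothelial genes summing to 649 CPM in control and 203 CPM in Setdb1_cKO. Its part in these ratios was not tested. In the other sets the ratios of Aqp4 and Apoe lay below 1, as in members. They were 0.73 and 0.836 in all other cells, 0.694 and 0.838 in Eomes progenitors and 0.129 and 0.454 in oligodendrocyte progenitors. Whether any of these differ from the members was not tested.

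Of 24 measured cholesterol synthesis genes 2 were at least 2-fold lower and 0 higher, with a median log2 ratio of -0.70 against -0.01 over all genes. The lower pair were Stard4, a sterol carrier (52.4 and 25.2 CPM, ratio 0.482, 0.352 to 0.652), and Dhcr7, the last reductase of the pathway (48.8 and 24.4 CPM, ratio 0.499, 0.362 to 0.6804). The demethylase Cyp51 stood at 323 and 165 CPM (0.511, 0.453 to 0.574). Srebf2, the factor that drives the pathway, had an interval that included 1 (0.905, 0.755 to 1.08). The summed log2 ratio was -0.57 without and -0.44 with Aqp4.

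Of 27 measured adhesion and matrix genes 3 were at least 2-fold lower and 1 higher. The lower genes were Sparc, a matrix glycoprotein (126 and 50.9 CPM), Itga6, a laminin receptor chain (155 and 77.4 CPM), and Cdh4, a cadherin (104 and 48.7 CPM), and the higher was Cntn1 (10.2 and 21.7 CPM). A pair of abundant matrix genes of glia also had ratios below 1, the proteoglycan Ncan at 0.534 (0.505 to 0.565) and the receptor phosphatase Ptprz1 at 0.623 (0.604 to 0.641).

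Of 19 measured Notch genes 1 was at least 2-fold higher and 2 lower. The ligand Jag1 had 44 and 62 UMIs (2.05, 1.37 to 3.09), and the ligand Dll1 46 and 63 UMIs (1.99, 1.34 to 2.98). The receptor Notch3 had 0.391 (0.241 to 0.613) and Numb, which restrains Notch, 0.342 (0.166 to 0.6503), while Notch1 (0.934, 0.825 to 1.06) and Hes5 (1.04, 0.988 to 1.09) had intervals that included 1.

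Of the genes that name the cells, Olig1 was lower, at 0.6798 (0.629 to 0.734), and Inka2 at 0.758 (0.646 to 0.887), while the interval of Sall3 included 1, at 0.9501 (0.811 to 1.11). In all other cells Olig1 had 0.378 (0.3604 to 0.396) and Sall3 0.497 (0.455 to 0.542).

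Among 18 measured G1 genes 3 were at least 2-fold higher and 0 lower. They were the cell cycle inhibitors Cdkn1c (7.78 and 36.5 CPM, ratio 4.696, 2.99 to 7.598) and Cdkn1a (6.28 and 16.1 CPM, ratio 2.56, 1.46 to 4.61) and the transcription factor Mycn, which drives growth (16.8 and 39.6 CPM, ratio 2.36, 1.68 to 3.36). Of 42 S phase genes 0 were 2-fold apart, with a median log2 ratio of 0.31, and of 50 measured G2/M genes 0, with 0.02. The S phase sum depended on which members were taken, with a log2 ratio of 0.32 in all, 0.28 without Aqp4, -0.05 with it and 0.05 at 2 or more UMIs of Olig2 and of Egfr. For the G2/M sum the log2 ratio was 0.06 in all and -0.27 at 2 or more UMIs of Olig2 and of Egfr.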

How the data were processed

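The files deposited by the authors hold raw UMI counts per gene and barcode. Cell Ranger 7.1.0, mm10 and Seurat are named, per the submitters' processing notes. Annotation release, treatment of introns and cell calling are not stated there. In sum, the libraries held 82393428 (control) and 87845965 (Setdb1_cKO) UMIs.

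Cells were kept from 1000 UMIs and 500 genes upward when mitochondrial UMIs were at most 10%. UMIs were summed over cells and divided by the sum of the set (CPM). For ratios the interval is the exact conditional Poisson one, for shares the Clopper-Pearson one, both at 95%. A gene was measured with 50 UMIs over both libraries. The code was tested on simulated data. Shares were taken after thinning cells to 2000 UMIs, and expected shares were computed over all thinnings. Doublets were called with Scrublet in scanpy 1.11.5 (expected rate 8%) and kept.

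Named genes were the defining genes and markers, the 15 highest against all other cells, the 8 highest and 8 lowest against each of 3 gates, and members of the lists. Added to these were the 12 highest and 12 lowest between libraries at 20 CPM or more in the higher one, ranked by the interval bound nearest 1. From these 12 and 12, mitochondrial, haemoglobin and ribosomal genes and a list of 6 sex-linked genes were then left out. Other genes of the X or Y chromosome, such as Ccnb3, were kept. Some list members were named after their values were seen, and some results are not reported here. The gates were oligodendrocyte progenitors (Pdgfra and Sox10, no Egfr or Eomes), Eomes progenitors, Hopx Sox9 glia, Neurod6 neurons (2 or more UMIs) and endothelial cells (Cldn5 and Flt1). Positions are from GENCODE vM21, which matched 32158 of 32285 identifiers. The members, lists and alternatives were chosen with earlier results of these data known.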

Additional observations from a re-analysis of the deposited data

Results flagged for a closer look

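In 18 genes of the lists the members differed between libraries in the opposite direction from all other cells, with both counting intervals clear of 1 and the ratios at least 2-fold apart. These differences were not tested, because each genotype had 1 library. The rule was applied to measured genes of the lists only. The share of all genes that meet it was not counted, so the number 18 is not read as many or few. Ratios of Setdb1_cKO to control are given for members against other cells, a pooled sum whose make-up differed between libraries. Eomes progenitors, for 1, were 2164 of 11414 control and 1055 of 9956 Setdb1_cKO cells. The S phase list summed to 1638 and 1222 CPM in the pooled cells. It summed to 2768 and 2575 CPM in Eomes progenitors, 2282 and 2021 CPM in oligodendrocyte progenitors and 1829 and 1286 CPM in Hopx Sox9 glia. The Notch ligand Jag1 had 2.05 against 0.7999. Listed because they lay in opposite directions, 12 cell cycle genes were higher in members and lower elsewhere: Mcm2 1.51 against 0.596, Mcm6 1.57 against 0.6299, Ung 1.79 against 0.568, Cdca7 1.52 against 0.758, Uhrf1 1.31 against 0.547, Hells 1.85 against 0.692, Rad51ap1 1.45 against 0.616, Wdr76 1.59 against 0.732, Dscc1 1.92 against 0.652, Clspn 1.47 against 0.561, Nusap1 1.26 against 0.618 and the retinoblastoma relative Rbl1 1.60 against 0.6504. They are a chosen few: in members 0 of 42 S phase and 0 of 50 measured G2/M genes were 2-fold apart, with median log2 ratios of 0.31 and 0.02, and the summed S phase log2 ratio was 0.05 at 2 or more UMIs of Olig2 and of Egfr and -0.05 in members with Aqp4. The imprinted gene Nap1l5 (0.671 against 1.48) and the adhesion gene Cadm2 (0.639 against 1.34) were lower in members and higher elsewhere. The blood and microglial genes Hba-a1 (13.7 against 0.543), Hbb-bs (10.7 against 0.514) and C1qb (0.0752 against 1.22) rested on few cells: 1 Setdb1_cKO member held 43 of 47 UMIs of Hba-a1 there and 1 held 233 of 251 of Hbb-bs, and 1 control member held 29 of 58 UMIs of C1qb.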

How the results depend on the processing

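No paired analysis was possible because each genotype had 1 library. The ratio of member shares was 0.903 with at least 2 UMIs of Olig2 and Egfr, and between 0.656 and 0.744 in the other settings. The ratio of cycling shares, 1.09 in the main thinning, was 0.577 in members with Aqp4 (32 of 194 and 8 of 84 cells). It was 0.829 at 2 or more UMIs of Olig2 and of Egfr (49 of 127 and 32 of 100 cells) and 0.8999 in members picked after thinning. Over 5 other thinnings it was 0.977 to 1.14, and in the remaining settings 1.03 to 1.196. Its direction thus depended on the members taken. Against 129 of 9187 genes 2-fold higher, settings gave 79 of 6392 (at least 2 UMIs), 46 of 3884 (members picked after thinning) and 238 of 9916 (excluded genes allowed). They gave 34 of 3949 with thinned cells summed, and 327 of 11332 and 25 of 4537 at a minimum of 20 and 200 UMIs. Cells with Top2a or Mki67 gave 73 of 6420 and those with Aqp4 75 of 6820. Against 161 of 9187 genes lower, settings gave 105 of 6392 (at least 2 UMIs), 86 of 3949 (thinned cells summed) and 103 of 6820 (with Aqp4). A minimum of 20 and 200 UMIs gave 339 of 11332 and 41 of 4537. The stricter cell filter gave 103 higher and 235 lower of 8063 genes. The settings on a minimum, a smaller gate or a subset also tested fewer or more genes. Beyond that the cause was not tested. Meg3 lost its difference in cells with Top2a or Mki67, with a log2 ratio of -0.0146 (308 and 214 UMIs). For genes and lists, a change of sign was recorded only where the main values were at least 2-fold apart. That of Gfap in the same cells, from 0.42 to -1.15, was therefore not recorded as one. The Aqp4 split, leaving out each gene's cell of most UMIs, and other thinnings were chosen after seeing the data. Of other values for genes and lists, 677 moved by less than counting error and 243 by more. With 1 library per genotype, depth sets only the counting error, and variation between animals was not measured.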

Other observations

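Of 23 measured imprinted genes, 3 were at least 2-fold higher in Setdb1_cKO members and 0 lower, beside 1.40% and 1.75% of all 9187 measured genes. Meg3, a maternally expressed noncoding RNA, stood at 140.1 and 335 CPM in control and Setdb1_cKO members (2.39, 2.13 to 2.69), and Rian, from the same imprinted cluster, at 10.5 and 27.4 CPM (2.62, 1.704 to 4.08). Cdkn1c was the other. Meg3 depended on which members were taken, with a log2 ratio of 1.26 in all, 0.62 without called doublets and -0.01 in members with a UMI of Top2a or Mki67. Nnat had a ratio of 1.82 and Mest of 0.658 (0.541 to 0.799).

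Igfbp5, which like Igfbp2 binds insulin-like growth factors, was higher, at 78.7 and 208 CPM (2.65, 2.27 to 3.09). Its ratio was 4.33 (3.58 to 5.26) in members with Aqp4 and 1.31 (0.999 to 1.71) in those without, and its log2 ratio was 0.13 in members with a UMI of Top2a or Mki67. Socs3, an inhibitor of cytokine signalling, had 57 and 121 UMIs (3.09, 2.23 to 4.31). Neuronal transcripts were partly from single cells: 1 Setdb1_cKO member held 27 of the 75 UMIs of Syt4, and 1 held 38 of the 235 of Nrgn. Without called doublets the log2 ratio of Syt4 went from 3.02 to 1.35 and of Nrgn from 1.86 to 0.25.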
